A study of Rattus norvegicus with 6 samples.

Results

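The genes described here are the 37 cholesterol and fatty acid synthesis genes driven by the sterol regulatory element-binding proteins (SREBPs), of which 21 belong to the sterol branch and 16 to the fatty acid branch. They were chosen by symbol, and a member was represented by its probe of highest mean signal over all arrays. A probe of the array matched 36 of the 37 genes, and 35 members, 21 sterol and 14 fatty acid, were among the 31193 transcripts tested. Srebf1, which encodes the SREBP that favours fatty acid genes, had no matched probe and was not analysed here. Scd, a stearoyl-CoA desaturase, was not tested, since neither of its 2 probes was well above background on every array of a group. Its probe of highest mean signal was well above background on 0 of 3 corn oil and 0 of 3 carbon tetrachloride arrays.

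RNA came from the renal cortex of male Sprague-Dawley (Crl:CD(SD)) rats that were 5 weeks old at purchase and were kept on a basal diet with free access to tap water. The control group of 3 rats was given corn oil for 4 weeks, and the treated group of 3 rats was given carbon tetrachloride at 100 mg/kg/day for 4 weeks. No genetic change is named for either group. The labels name corn oil for the control group alone and leave the vehicle of carbon tetrachloride unstated. Carbon tetrachloride is a solvent best known for liver injury through radicals formed by cytochrome P450. The design text names benzyl acetate, but the title and the labels of the treated rats give carbon tetrachloride, and that agent is taken here. That text calls the samples biological replicates. Each rat gave 1 single-colour Agilent array, and precision is limited by their number.

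SREBPs are transcription factors held in the endoplasmic reticulum membrane. When sterols run low, the escort protein Scap carries them to the Golgi, where site-1 and site-2 proteases, encoded by Mbtps1 and Mbtps2, release the active part, while Insig proteins hold the complex back when sterols are plentiful. In the nucleus SREBPs bind sterol regulatory elements, usually next to sites of the factors NF-Y and Sp1, and they raise transcription of sterol and fatty acid synthesis genes. The kidney cortex makes both kinds of lipid, and its proximal tubule cells also burn fatty acids for energy.

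Promoter sequences show what the branches share. RefSeq promoters of the assembly GRCr8, which run from 250 bases before to 50 bases after the annotated start, were found for 30 member genes. There were 17 promoters of 17 sterol genes and 15 promoters of 13 fatty acid genes, since Srebf1 and Mlxipl have 2 each, and those of Mlxipl are nearly the same stretch, shifted by 4 bases. No entry matched Stard4, Pmvk, Fdft1, Sqle, Acaca, Fasn or Elovl6. The motifs searched on both strands were CCAAT (the NF-Y box), GGGCGG (the GC box, bound by Sp1), TCACNCCAC and its shortened form TCACNCCA (sterol regulatory element) and CACGTG (an E-box). TCACNCCA lies within TCACNCCAC, and the others share no required overlap. The 6 stretches printed here are the 200 bases before the start of genes named in the results. Each is written 5′ to 3′ on the strand of its gene. Capitals mark NF-Y boxes and shortened sterol regulatory elements on either strand. Srebf2 and Msmo1 are shown because both motifs occur in them, Hmgcs1 and Mvk because they hold several NF-Y boxes, and Gpam and Fads2 because their groups did not overlap on the arrays.
Srebf2: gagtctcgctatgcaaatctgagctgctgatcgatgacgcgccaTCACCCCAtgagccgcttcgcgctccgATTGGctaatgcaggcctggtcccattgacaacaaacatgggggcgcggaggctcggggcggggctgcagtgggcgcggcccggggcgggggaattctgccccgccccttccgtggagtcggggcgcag
Msmo1: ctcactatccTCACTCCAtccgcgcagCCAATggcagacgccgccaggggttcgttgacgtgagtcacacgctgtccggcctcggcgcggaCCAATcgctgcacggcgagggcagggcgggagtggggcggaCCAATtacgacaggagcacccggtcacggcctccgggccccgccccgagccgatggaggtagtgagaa
Hmgcs1: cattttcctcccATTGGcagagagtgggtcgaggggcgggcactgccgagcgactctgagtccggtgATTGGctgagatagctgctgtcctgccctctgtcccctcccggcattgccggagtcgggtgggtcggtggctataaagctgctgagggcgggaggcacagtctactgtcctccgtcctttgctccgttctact
Mvk: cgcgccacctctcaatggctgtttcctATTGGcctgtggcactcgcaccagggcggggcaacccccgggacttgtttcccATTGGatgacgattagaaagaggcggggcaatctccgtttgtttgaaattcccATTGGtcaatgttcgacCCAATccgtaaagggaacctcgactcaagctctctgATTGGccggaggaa
Gpam: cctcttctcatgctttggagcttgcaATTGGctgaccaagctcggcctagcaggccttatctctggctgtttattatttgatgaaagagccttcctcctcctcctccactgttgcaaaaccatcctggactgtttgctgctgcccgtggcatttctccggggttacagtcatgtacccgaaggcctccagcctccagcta
Fads2: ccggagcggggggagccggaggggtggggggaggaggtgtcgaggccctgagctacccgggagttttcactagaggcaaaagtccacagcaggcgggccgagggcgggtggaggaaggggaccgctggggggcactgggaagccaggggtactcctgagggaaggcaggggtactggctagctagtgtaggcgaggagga

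In Srebf2, at chr7:115543107-115543306 on the + strand, the shortened element started 156 bases before the annotated start and the NF-Y box 129 bases before it. In Msmo1, at chr16:29746913-29747112 on the + strand, the shortened element lay 190 bases upstream, ahead of 3 NF-Y boxes that began 173, 109 and 68 bases upstream. Hmgcs1, at chr2:53382104-53382303 on the + strand, held 2 NF-Y boxes, 188 and 133 bases upstream. Mvk, at chr12:47819504-47819703 on the - strand, held 5. Gpam, at chr1:264175912-264176111 on the - strand, held 1, which began 174 bases upstream. The Fads2 stretch, at chr1:216172034-216172233 on the - strand, held neither motif.

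Counted by gene, an NF-Y box occurred for 14 of 17 sterol genes (82.4%) and for 10 of 13 fatty acid genes (76.9%), against 39.6% of all 27457 rat genes with a promoter and 38.5% of those tested on the arrays. More than 1 NF-Y box in a promoter was found for 10 sterol genes (58.8%) and 4 fatty acid genes (30.8%), against 12.2% of all genes. A GC box was found for 15 sterol genes (88.2%) and 8 fatty acid genes (61.5%), against 57.4% of the genes tested on the arrays. In the GC box the share of the sterol genes was above that of the tested genes, and the share of the fatty acid genes was near it. The shortened sterol regulatory element was present for Srebf2 and Msmo1 in the sterol branch and Mlxipl in the fatty acid branch, against 4.29% of all genes, and the longer form TCACNCCAC was present for 0 of 17 and 0 of 13 against 1.25%. An E-box was found for Insig1 and Sc5d in the sterol branch and for Elovl5 in the fatty acid branch, against 7.08% of all genes. A match is a string of letters and not a measured binding site, and binding was not measured in this series.

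**Figure D1:**
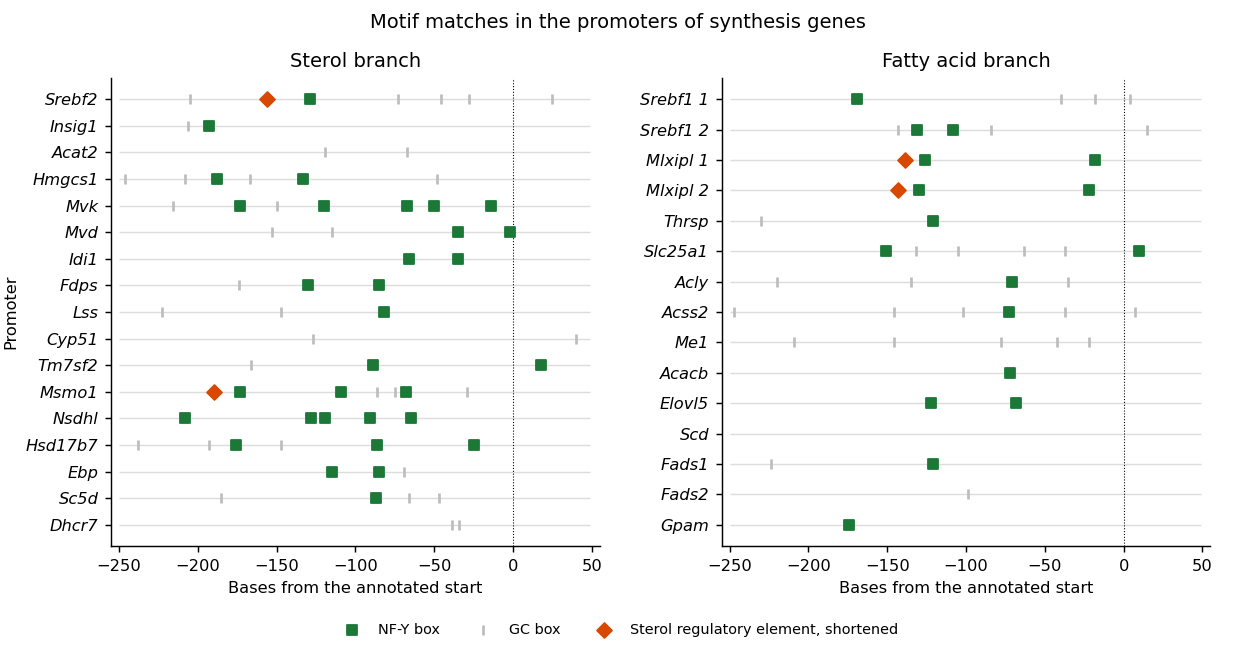
Positions of motif matches in the promoters of sterol (left) and fatty acid (right) synthesis genes, 1 line per promoter, with the distance in bases from the annotated start on the x axis. Green squares are NF-Y boxes, grey ticks GC boxes and orange diamonds shortened sterol regulatory elements. NF-Y boxes appear on 14 of 17 and 12 of 15 lines, and the only 4 diamonds are in Srebf2, Msmo1 and the 2 overlapping promoters of Mlxipl.

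Array values below are log2 of the processed spot intensity after division by that array's 75th percentile, so that 0 is the 75th percentile of the array, and each value serves to compare arrays for 1 gene, not genes with each other. A log2 change is the carbon tetrachloride mean minus the corn oil mean. Changes were tested with limma, and p-values were adjusted by the Benjamini-Hochberg method over all 31193 transcripts with a threshold of 0.05. All 35 members tested were well above background on all 6 arrays.

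No gene of either branch passed the test for a difference between the groups. Of the 35 members, 0 passed the adjusted threshold in limma, where 1 of 31193 transcripts (0.00321%) passed, a transcript that matched no gene symbol. Before adjustment 2 members, Fads2 (higher) and Gpam (lower), had limma p-values under 0.05, which is 2 of 35 against 6.3% of all transcripts. The treated arrays lay wholly above the control arrays for 2 members, Srebf2 and Fads2, against 7.55% of all transcripts, and wholly below for 1, Gpam, against 5.28%. Log2 changes ran from -0.10 (Acat2) to 0.23 (Dhcr7) in the sterol branch and from -0.28 (Gpam) to 0.34 (Fads2) in the fatty acid branch. The 95% interval of the change lay within 0.5 of 0 for 18 of 21 sterol members and 10 of 14 fatty acid members, against 65.3% of all transcripts. In tissue RNA, fewer cells of a type and less RNA per cell cannot be told apart.

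**Figure D2:**
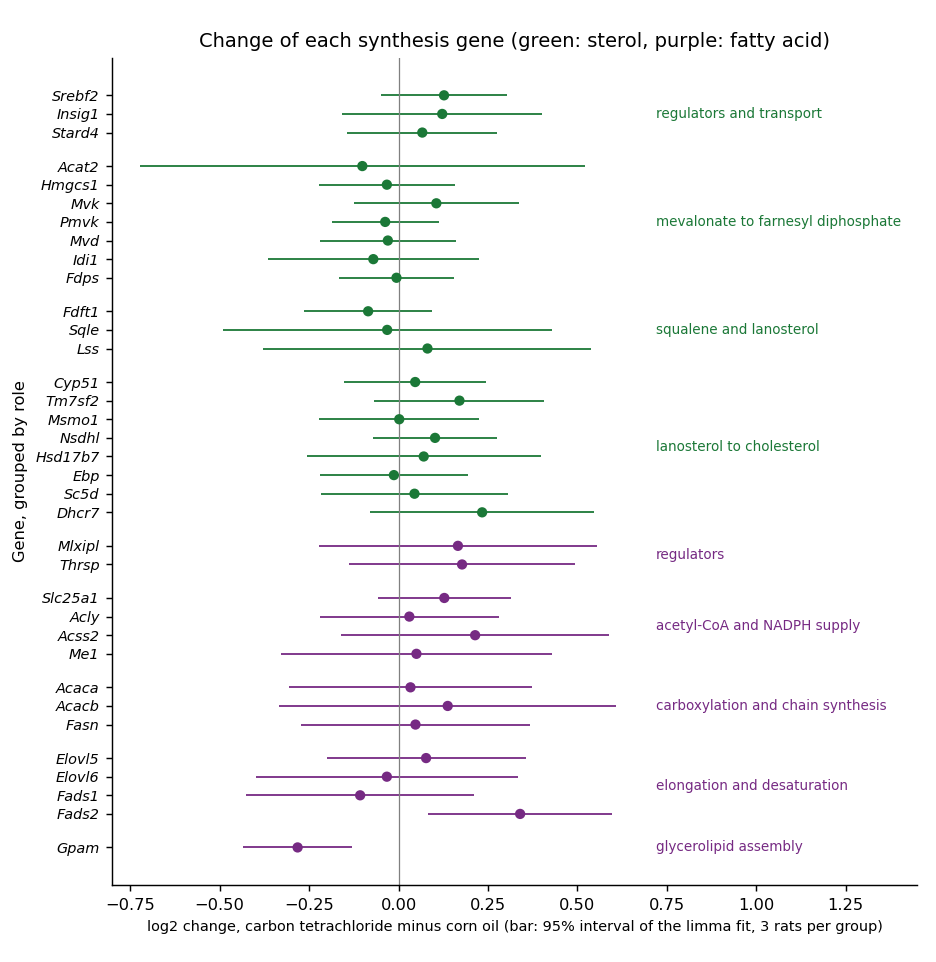
Log2 change of each of 35 synthesis genes (carbon tetrachloride minus corn oil, 3 rats per group), grouped on the y axis by role, with points for the limma estimate and bars for its 95% interval. Green is the sterol branch and purple the fatty acid branch. The intervals of Fads2 and Gpam are the only ones that do not include 0.

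Among the regulators and the transporter of the sterol branch, 3 of 3 had higher treated means, with a median log2 change of 0.12. Srebf2, the SREBP that favours sterol genes, measured 1.79, 1.71 and 1.78 on corn oil replicates 1 to 3 and 1.98, 1.85 and 1.84 on carbon tetrachloride replicates 1 to 3. The treated values did not overlap the control values, and the change was 0.13 ± 0.071 (SE, n = 3 per group, limma adjusted p = 0.825). The other Srebf2 probes gave the same direction, at 0.10 and 0.76, the mean of the probes gave 0.33 (limma adjusted p = 0.78), and the change was 0.083 without carbon tetrachloride replicate 1. Insig1, which retains the SREBP complex in the endoplasmic reticulum and is itself an SREBP target, stood at 2.40 on each corn oil array and at 2.52, 2.31 and 2.72 on the treated arrays. Its treated values straddled the controls, and the change of 0.12 ± 0.11 (SE, limma adjusted p = 0.861) was 0.019 without carbon tetrachloride replicate 3 and 0.23 without carbon tetrachloride replicate 2. Stard4, a protein that moves sterols between membranes, had 1.61, 1.58 and 1.55 with corn oil against 1.70, 1.49 and 1.73 with carbon tetrachloride. Its change of 0.066 ± 0.085 was 0.036, 0.14 and 0.023 without carbon tetrachloride replicate 1, 2 and 3 respectively.

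The enzymes from acetyl-CoA to farnesyl diphosphate had the opposite balance, with 1 of 7 higher, 6 of 7 lower and a median log2 change of -0.033. Acat2, the cytosolic thiolase that starts the path, was the most variable sterol member, with 2.77, 3.37 and 3.45 in the controls and 3.16, 2.70 and 3.42 in the treated rats. Hmgcs1, the cytosolic HMG-CoA synthase, measured 2.81, 2.74 and 2.77 with corn oil and 2.84, 2.64 and 2.74 with carbon tetrachloride. The control range lay inside the treated range, and the change was -0.033 ± 0.077 (SE, limma adjusted p = 0.951, 95% interval -0.22 to 0.16), which became 0.018 without carbon tetrachloride replicate 2, -0.084 without carbon tetrachloride replicate 1, -0.050 without corn oil replicate 2 and -0.014 without corn oil replicate 1. Mvk, mevalonate kinase, was the member with a higher treated mean, at 0.11 ± 0.094, which was 0.045 without carbon tetrachloride replicate 3 and 0.19 without carbon tetrachloride replicate 2. Pmvk and Mvd, the following kinase and decarboxylase, had -0.037 ± 0.061 and -0.030 ± 0.078, and Pmvk had -0.018 without corn oil replicate 2. Idi1, the isopentenyl diphosphate isomerase, had -0.070 ± 0.12, and Fdps, farnesyl diphosphate synthase, had -0.0057 ± 0.065.

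At the squalene step, Fdft1, squalene synthase, had a log2 change of -0.085 ± 0.073, with 3.24, 3.07 and 3.14 in the controls and 3.04, 3.05 and 3.11 in the treated rats, so that only carbon tetrachloride replicate 3 lay within the control range. Without corn oil replicate 1 the Fdft1 change was -0.039. Sqle, squalene epoxidase, was low on a single treated array, with 1.60, 1.48 and 1.63 in the controls and 1.80, 1.12 and 1.70 in the treated rats. Its probes differed in direction, at -0.032 and 0.044. Lss, lanosterol synthase, spread widely in both groups, from 0.54 to 1.02 with corn oil and from 0.56 to 1.12 with carbon tetrachloride.

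From lanosterol to cholesterol, 7 of 8 members had higher treated means and the median log2 change was 0.058. Dhcr7, the reductase of the final step, had the largest value of the branch, with 2.29, 2.41 and 2.66 in the controls and 2.77, 2.77 and 2.52 in the treated rats. One treated array lay inside the control range, and the change of 0.23 ± 0.13 (SE, limma adjusted p = 0.82) was 0.15 without corn oil replicate 1. Tm7sf2, a sterol reductase, measured 2.40, 2.28 and 2.45 with corn oil and 2.55, 2.68 and 2.40 with carbon tetrachloride. The groups overlapped, and the change of 0.17 ± 0.097 (SE, limma adjusted p = 0.825) was 0.10 without carbon tetrachloride replicate 2. Nsdhl, the decarboxylating sterol dehydrogenase, measured -0.58, -0.60 and -0.63 in the controls against -0.45, -0.59 and -0.47, a change of 0.10 ± 0.070 (SE, limma adjusted p = 0.835) in which only carbon tetrachloride replicate 2 lay within the control range. Cyp51, the lanosterol demethylase, Sc5d, a sterol desaturase, and Hsd17b7, a keto-sterol reductase, had changes of 0.047, 0.045 and 0.070. Msmo1, the methylsterol oxidase, and Ebp, the sterol isomerase, had 0.0020 ± 0.091 and -0.013 ± 0.084.

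In the fatty acid branch, Mlxipl, the carbohydrate-responsive factor ChREBP, measured 0.13, -0.09 and -0.08 with corn oil and 0.38, -0.17 and 0.23 with carbon tetrachloride, so the treated rats spanned more than the controls. Its change of 0.17 ± 0.16 was 0.049 without carbon tetrachloride replicate 1 and 0.32 without carbon tetrachloride replicate 2. Thrsp, a nuclear protein of lipogenic tissues, had a log2 change of 0.18 ± 0.13, which was 0.29 without corn oil replicate 1 and 0.057 without corn oil replicate 2. All 4 suppliers of acetyl-CoA and NADPH had higher treated means, with a median of 0.089. Slc25a1, the mitochondrial citrate carrier, measured 1.79, 1.91 and 1.82 in the controls and 1.98, 1.88 and 2.05 in the treated rats. Carbon tetrachloride replicate 2 was within the control range, and the change was 0.13 ± 0.076 (SE, limma adjusted p = 0.827). Acss2, which makes acetyl-CoA from acetate, measured 3.95, 3.69 and 4.24 against 4.21, 4.27 and 4.05. Its groups overlapped, and the change of 0.21 ± 0.15 (SE, limma adjusted p = 0.836) was 0.079 without corn oil replicate 2 and 0.35 without corn oil replicate 3. Acly, ATP citrate lyase, and Me1, the cytosolic malic enzyme, had 0.030 ± 0.10 and 0.050 ± 0.15.

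The enzymes of carboxylation and chain synthesis had 3 of 3 higher treated means, with a median log2 change of 0.047 and overlapping groups throughout. Acaca, an acetyl-CoA carboxylase, measured -3.03, -3.22 and -3.39 with corn oil and -3.00, -3.15 and -3.39 with carbon tetrachloride. The ranges nearly coincided, and the change of 0.033 ± 0.14 (SE, limma adjusted p = 0.977) became -0.056 if corn oil replicate 3 was left out and -0.055 if carbon tetrachloride replicate 1 was. It was 0.12 when corn oil replicate 1 was left out, 0.14 when carbon tetrachloride replicate 3 was, and 0.016 when carbon tetrachloride replicate 2 was, and the mean of its probes gave 0.19. Fasn, fatty acid synthase, measured 1.50, 1.50 and 1.37 in the controls and 1.73, 1.26 and 1.52 in the treated rats. The highest and the lowest of its 6 values were both from treated rats. The Fasn change of 0.047 ± 0.13 (SE, limma adjusted p = 0.959) became -0.066 without carbon tetrachloride replicate 1, 0.17 without carbon tetrachloride replicate 2 and 0.0019 without corn oil replicate 3. Acacb, the carboxylase at the mitochondrial membrane, had 0.14 ± 0.19.

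Past chain synthesis, Fads2 and Gpam each had groups that did not overlap. Fads2, the desaturase that starts the conversion of essential fatty acids to longer polyunsaturated ones, measured -0.51, -0.25 and -0.60 with corn oil and -0.12, -0.13 and -0.09 with carbon tetrachloride. All treated values were above all controls and lay close together, with means of -0.45 ± 0.18 and -0.11 ± 0.02 (SD, n = 3 each). The change was 0.34 ± 0.10 (SE), or 1.27-fold, with a limma p of 0.0177 and an adjusted p of 0.768. A second Fads2 probe had the same direction, at 0.20, and the mean of the probes gave 0.27. Without corn oil replicate 1, 2 or 3 the Fads2 change was 0.31, 0.44 and 0.27. The unadjusted limma result for Fads2 missed the 0.05 threshold with the mean of the probes and without corn oil replicate 1 or 3. It met that threshold in every other setting tried. Fads1, the desaturase of the next step in that path, had -0.11 ± 0.13, with 0.83, 1.12 and 0.75 in the controls and 0.92, 0.83 and 0.63 in the treated rats. The elongases Elovl5 and Elovl6 had 0.077 ± 0.11 and -0.033 ± 0.15. A second Elovl5 probe gave 0.29, and the mean of the Elovl5 probes gave 0.18.

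Gpam, the mitochondrial acyltransferase that attaches the first fatty acid to glycerol-3-phosphate, measured -2.73, -2.77 and -2.80 in the controls and -3.03, -3.08 and -3.03 in the treated rats. The groups were tight and did not overlap, with means of -2.77 ± 0.03 and -3.05 ± 0.03 (SD, n = 3 each). The change was -0.28 ± 0.062 (SE), a ratio of 0.822, with the smallest limma p of the members, 0.004, and an adjusted p of 0.689. A single probe of the array matched Gpam. Without each array in turn the change ran from -0.30 to -0.26. With normexp background correction it was smaller, at -0.20, with an unadjusted limma p of 0.0256.

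**Figure D3:**
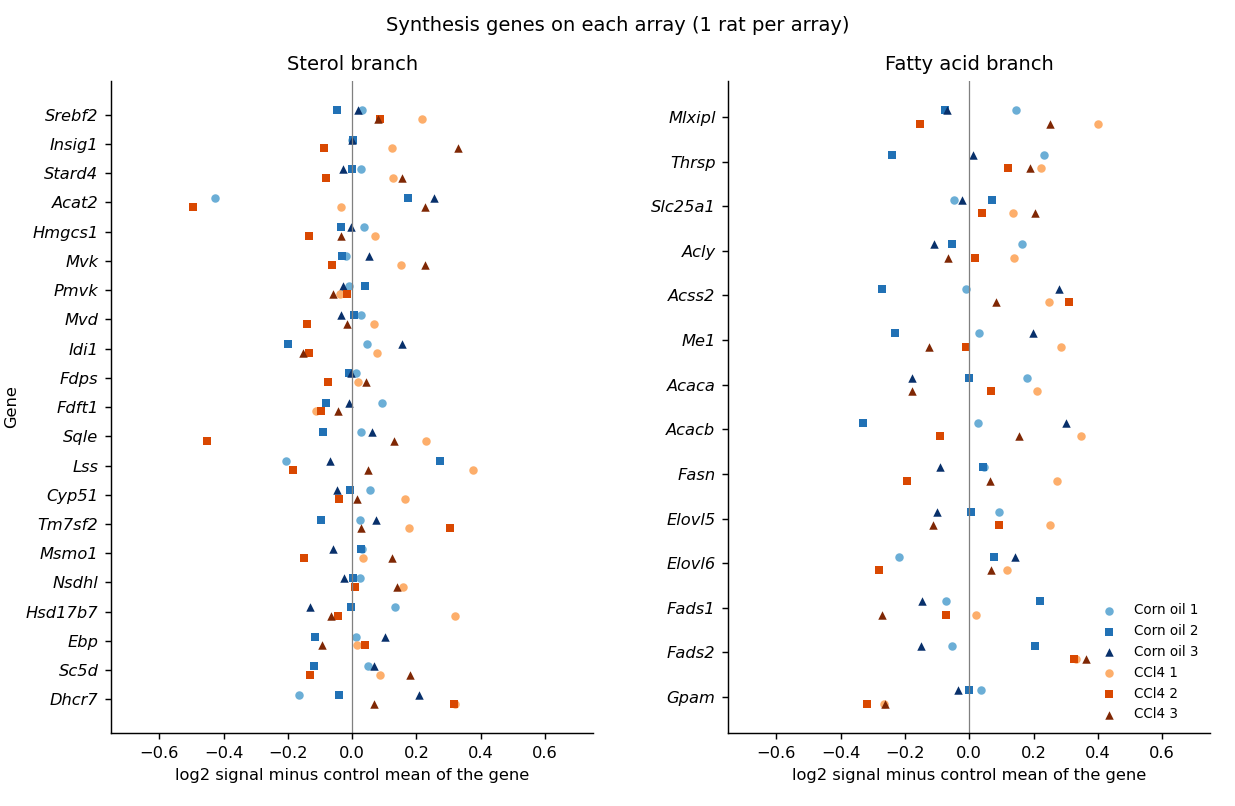
Log2 signal of each synthesis gene minus that gene's corn oil mean (x axis) on each of the 6 arrays, with 1 row per gene on the y axis. Blue marks are corn oil and orange to brown marks carbon tetrachloride, and the marker shape gives the replicate number. Treated marks are wholly right of the controls for Srebf2 and Fads2 and wholly left for Gpam. Carbon tetrachloride replicate 2 is the leftmost of the 3 treated marks for 21 of 35 genes, against 32.6% of all transcripts.

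The branches were then compared as wholes. In the sterol branch 12 of 21 members had a log2 change above 0 and the median was 0.045, and in the fatty acid branch 11 of 14 did and the median was 0.064, against 52.3% of all transcripts above 0 and a median of 0.0077. The sterol median minus the fatty acid median was -0.019, and no test was made of either branch or of their difference. Both signs rest on carbon tetrachloride replicate 1: without that array the medians were -0.017 in each branch, with 8 of 21 and 6 of 14 members above 0. Without carbon tetrachloride replicate 2 the medians were 0.10 and 0.13, with 17 of 21 and 12 of 14 above 0. Without corn oil replicate 1, 2 or 3 the sterol median was 0.017, 0.016 and 0.025, and the fatty acid median 0.12, 0.045 and 0.078. Carbon tetrachloride replicate 3 was alone on its slide and in its scan. Within the slide that held the other 5 arrays the medians were 0.019 and 0.13.

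The treated rats differed among themselves in these genes. Relative to the corn oil mean of each gene, the median sterol member stood at 0.027, -0.0095 and -0.0032 on corn oil replicates 1 to 3, and at 0.12, -0.082 and 0.050 on carbon tetrachloride replicates 1 to 3. The fatty acid medians were 0.033, -0.0011 and -0.051 with corn oil and 0.24, 0.0039 and 0.065 with carbon tetrachloride. The medians of all transcripts lay between -0.0079 and 0.018 on the 6 arrays. The spread of the sterol median between rats was 0.019 (SD, n = 3) with corn oil and 0.10 with carbon tetrachloride, and that of the fatty acid median 0.042 and 0.12. In these values the controls are centred on their own group mean and the treated rats are not. Relative to the carbon tetrachloride mean of each gene, the medians on carbon tetrachloride replicates 1 to 3 were 0.061, -0.10 and 0.012 for sterol members. The fatty acid medians on that scale were 0.14, -0.047 and 0.014. With either centring the treated rats spanned more than the controls in both branches, without a test of that difference.

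**Figure D4:**
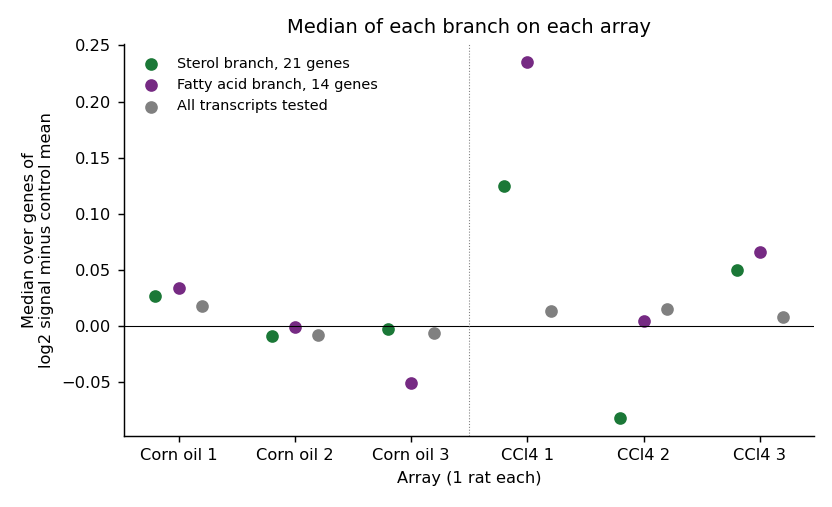
Median over genes of the log2 signal minus the gene's corn oil mean (y axis) on each of the 6 arrays (x axis), for 21 sterol members (green), 14 fatty acid members (purple) and all transcripts tested (grey). Grey points stay near 0, the fatty acid point of carbon tetrachloride replicate 1 reaches 0.24 and the sterol point of carbon tetrachloride replicate 2 is at -0.082.

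Carbon tetrachloride replicates 1 and 2, which shared a slide and a scan, had the highest and the lowest treated median in both branches. Replicate 1 exceeded replicate 2 for 17 of 21 sterol and 13 of 14 fatty acid members, against 49.1% of all transcripts. The median difference was 0.21 in the sterol branch and 0.13 in the fatty acid branch, against -0.0040 over all transcripts. The largest differences between these arrays were 0.68 for Sqle, 0.56 for Lss, 0.55 for Mlxipl, 0.47 for Fasn and 0.46 for Acat2. Gpam, Fads2 and Dhcr7, which had the largest changes between groups, differed by 0.054, 0.0059 and 0.0030 between the same arrays. Replicate 2 was the lowest treated array for 13 of 21 sterol and 8 of 14 fatty acid members, against 32.6% of all transcripts. These counts compare 2 rats of a group, were chosen after the values were seen and carry no test.

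Markers of the tissue and of its neighbours are given here because a cortex sample can hold other cells. All 9 proximal tubule markers and all 7 markers of other cortical segments were tested. Summed signals, in units of the array's 75th percentile, ran for the proximal tubule from 1958 to 2121 with corn oil and from 2081 to 2204 with carbon tetrachloride. The sum for the other cortical segments was 676 on carbon tetrachloride replicate 1 and 475 on replicate 2, the highest and the lowest of the 6 arrays. Umod, by far the strongest signal of the 7, weighed most in this linear sum, with log2 values of 8.99 and 8.41 on these arrays. The median sterol member was highest and lowest on the same arrays. The fatty acid median was also highest on carbon tetrachloride replicate 1, but it was lowest on corn oil replicate 3, at -0.051. For 10 adipocyte markers tested of 13 the sums ran from 3.00 to 4.30 with corn oil and from 3.75 to 4.87 with carbon tetrachloride, 7 had higher and 3 lower treated means, Lep was below the filter, and Plin1 and Plin4 had no matched probe. For 6 adrenal markers tested of 12 the sums were 4.08 to 4.35 and 4.29 to 4.83, and Star, Cyp11b1, Cyp11b2, Mc2r, Nr5a1 and Dbh were below the filter. For 4 hepatocyte markers tested of 10 the sums were 2.36 to 2.88 and 2.23 to 2.71, and Alb, Apoa2, Ttr, Serpina1, Cps1 and Tat were below the filter. Of the adrenal markers tested 5 had higher and 1 lower treated means. Of the hepatocyte markers tested 2 had higher and 2 lower treated means, with a median log2 change of -0.043. In these 3 lists Cidea (adipocyte) and Apoa1 (hepatocyte) had treated values wholly above the controls, with log2 changes of 0.33 and 0.80. Apob (hepatocyte) had -0.57, with overlapping groups. The adipocyte and adrenal sums were highest on carbon tetrachloride replicate 2. The part of these cells in the values of the synthesis genes was not tested.

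The genes around the synthesis pathways were read from the same fit. Of 63 other sterol and fatty acid genes listed 54 were tested, and 0 passed the adjusted threshold in limma, while 8 had an unadjusted p under 0.05, all of them with higher treated means. That is 8 of 54 beside 6.3% of all transcripts. Treated values lay wholly above the controls for 9 of the 54 and wholly below for 2, beside 7.55% and 5.28% of all transcripts. In total 36 had higher and 18 lower treated means, with a median log2 change of 0.035.

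The largest changes among the 54 were those of the efflux transporters Abca1 and Abcg1. Abca1, the transporter that loads cholesterol onto apolipoprotein A-I, measured -2.47, -3.18 and -2.88 with corn oil and -2.08, -1.62 and -2.19 with carbon tetrachloride. The groups did not overlap, and the change was 0.88 ± 0.23 (SE), or 1.84-fold, with a limma p of 0.00912 and an adjusted p of 0.753. Abcg1, which passes cholesterol to lipoproteins, measured 0.71, 0.77 and 0.39 in the controls and 1.15, 1.17 and 1.35 in the treated rats. Again the groups did not overlap, and the change was 0.60 ± 0.12 (SE), or 1.52-fold, with a limma p of 0.00303 and an adjusted p of 0.689. Soat1, which esterifies cholesterol for storage, had 0.29 ± 0.11 (limma adjusted p = 0.786). Across the 15 genes of sterol sensing, movement and efflux, 10 had higher and 5 lower treated means, and the 3 just named were those with an unadjusted p under 0.05. Carbon tetrachloride replicate 2 was the lowest treated array for 2 of these 15 genes, against 32.6% of all transcripts. This count was also chosen after the values were seen and carries no test.

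The list of SREBP processing genes, in which Tmem97, the sigma-2 receptor, was also placed, divided evenly, with 3 of 6 higher and 3 lower. Tmem97 had 0.21 ± 0.076 (limma adjusted p = 0.781). Insig2, the companion of Insig1, measured -0.43, -0.37 and -0.45 with corn oil and -0.61, -0.53 and -0.46 with carbon tetrachloride. These Insig2 groups did not overlap, by a narrow margin, and the change was -0.11 ± 0.071 (limma adjusted p = 0.834), or -0.075 without carbon tetrachloride replicate 1. Mbtps2 had -0.21 ± 0.12 and -0.099 without corn oil replicate 3, while Scap and Mbtps1 had 0.061 ± 0.089 and 0.087 ± 0.065. Of 5 other sterol and isoprenoid genes tested, Ggps1, geranylgeranyl diphosphate synthase, had non-overlapping lower treated values and a change of -0.13 ± 0.067 (limma adjusted p = 0.82). Erg28, a scaffold of sterol enzymes, had -0.12 ± 0.081, or -0.071 without carbon tetrachloride replicate 3. Dhdds, a subunit of the dolichol-making prenyltransferase, had 0.073 ± 0.070, or 0.12 without corn oil replicate 2.

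Among other fatty acid genes, Scd2, a stearoyl-CoA desaturase, measured 0.96, 1.14 and 1.20 with corn oil and 1.55, 1.35 and 1.58 with carbon tetrachloride. The groups did not overlap, the change was 0.39 ± 0.10 (SE, limma adjusted p = 0.749), and 3 of 3 Scd2 probes had the same direction. In the 2 elongation and desaturation lists an unadjusted limma p under 0.05 was found for Fads2, 1 of 4 members tested, and Scd2, 1 of 8 other genes tested. The share over all transcripts was 6.3%. Both genes encode desaturases, but Fads1, also a desaturase, had a lower treated mean, with a change of -0.11. Acsl3, an acyl-CoA synthetase of lipid droplets, had 0.28 ± 0.076 (limma adjusted p = 0.753), Aacs, which activates acetoacetate for lipid synthesis, had 0.24 ± 0.077 (limma adjusted p = 0.768), and Lpin3, a phosphatidate phosphatase, had 0.19 ± 0.075 (limma adjusted p = 0.791). Lpin1, the related phosphatase, had -0.50 ± 0.31, which was -0.15 without corn oil replicate 3. Idh1, a cytosolic source of NADPH, and Mid1ip1, a partner of acetyl-CoA carboxylase, had -0.25 ± 0.14 and -0.24 ± 0.13. Idh1 had -0.097 without carbon tetrachloride replicate 3, and Mid1ip1 had -0.14 without corn oil replicate 1 and -0.38 without corn oil replicate 3. The elongation genes Elovl2 and Hacd3 had -0.22 ± 0.21 and 0.050 ± 0.087. Elovl2 varied with the array left out, from -0.46 without carbon tetrachloride replicate 3 (limma adjusted p = 0.576), which is also the value within slide 1, to -0.080 without carbon tetrachloride replicate 1 and -0.11 without carbon tetrachloride replicate 2. Oxsm, Mcat and Mecr, which form the separate fatty acid synthesis path of mitochondria, had 0.073, 0.035 and 0.021, each with overlapping groups.

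**Figure D5:**
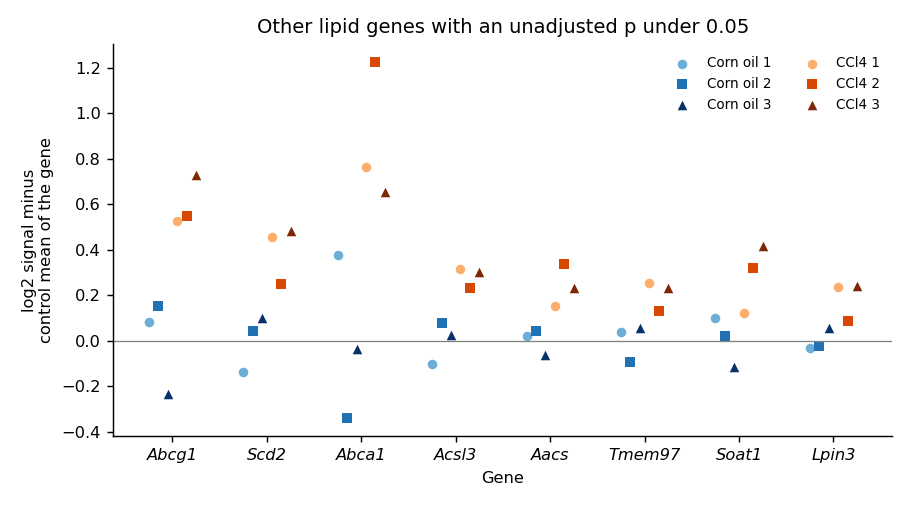
Log2 signal minus the gene's corn oil mean (y axis) on each array for the 8 other lipid genes with an unadjusted p under 0.05 in limma (x axis, ordered by p). Blue marks are corn oil and orange to brown marks carbon tetrachloride, with the marker shape giving the replicate. Treated marks lie above all control marks for each of the 8 genes, narrowly so for Soat1, and 0 of the 8 passed the adjusted threshold.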

How the data were processed

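Renal cortex RNA of 6 rats was measured on 1-colour arrays. The authors deposited scanner files of spot intensity, extracted with Agilent Feature Extraction 10.7.1.1 per the file headers (the submitters' processing notes give 10.7). The processed signal is already background-subtracted. The series' value table, also a linear intensity deposited by the authors, equals that signal divided by 1 factor per array, and its column medians were 0.118, 0.111, 0.114, 0.116, 0.115 and 0.111. Neither its scale nor its direction stayed unknown, no gene-wise centring was found, and it holds 0 columns of other samples.

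The 1439 control spots and spots with an outlier flag were left out, and the values were scaled to the 75th percentile. Accessions without versions were matched to RefSeq genes of GRCr8, used on the arrays for names only, which named 28206 of 61537 probes (45.8%). The array's own design rests on another build. Between 68.5% and 72.1% of probes were well above background per array. Probes entered the test when every array of 1 group or both showed them well above background, and 1 probe stood for each gene. The test was limma's (version 3.58.1, R 4.3.3; two-sided, Benjamini-Hochberg adjustment) and was tested on simulated data. The normexp alternative, with an offset of 50, used the median spot signal, since the files used here have no mean signal column.

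The members and lists were chosen with earlier results of these data known. Values on every array are given for Srebf2, Insig1, Hmgcs1, Acaca and Fasn, for members whose groups do not overlap and otherwise for up to 4 of a branch by smallest p. Other genes whose arrays are listed were chosen after their values were seen. Of each list of other lipid genes up to 3 are named by smallest p, with Scap and Mbtps1 added after their values were seen. The labels name no pairing of the replicate numbers, and none was used in the main fit. Deviations of same-numbered rats of the groups had correlations of -0.02, -0.10 and -0.08, and those of other pairs ran from -0.04 to 0.13. These correlations cannot show whether the samples were paired.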

Additional observations from a re-analysis of the deposited data

How the results depend on the processing

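Of the members 0 passed the adjusted limma threshold under any of 17 alternatives, and the lowest adjusted p of a member was 0.589. The replicate block leaves the changes as they are in this balanced design, so the branch medians of 0.045 and 0.064 could not move with it, and 0 transcripts passed. The sterol median was 0.023 with normexp, and the fatty acid median was 0.13 with the mean of a gene's probes. The number of transcripts past the threshold, 1 here, was also 0 with normexp background correction, without a filter on dim probes, when probes had to be well above background on all 6 arrays, with trend and robust fitting, with the slide block and within slide 1, and ran from 0 to 2 when single arrays were left out. The sterol minus fatty acid median of -0.019 was -0.088 with the mean of a gene's probes and -0.11 with the slide block and within slide 1. This branch difference ran from -0.11 to -0.00013 without single arrays. Carbon tetrachloride replicate 3 is alone on its slide, so blocking by slide, keeping to slide 1 and leaving that array out give the same values. Of 595 member values under the alternatives 40 had the opposite sign, in 20 members, and 15 members kept their direction throughout. With the mean of a gene's probes Sqle was 0.0062 and Oxsm -0.049. With the slide block and within slide 1 Msmo1 was -0.059, Ebp 0.027, Sc5d -0.023 and Hacd3 -0.018. With normexp Stard4 was 0.043, Mvk 0.070, Acaca 0.074, Soat1 0.16, Mbtps2 -0.049, Dhdds 0.047 and Lpin1 -0.10, and the mean of the probes gave Insig1 0.22, Hmgcs1 -0.070, Mbtps2 -0.11 and Dhdds 0.032. With normexp Me1 was -0.0093, Mecr -0.0072 and Fads2 0.28. The cause of these changes was not tested.

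Without single arrays, the log2 changes whose sign turned ran as follows in the sterol branch. Acat2 ran from -0.31 to 0.096, Hmgcs1 from -0.084 to 0.018, Mvd from -0.079 to 0.025, Idi1 from -0.17 to 0.0067, Fdps from -0.030 to 0.030, Sqle from -0.16 to 0.18 and Lss from -0.067 to 0.22. Cyp51 ran from -0.013 to 0.091, Msmo1 from -0.059 to 0.078, Hsd17b7 from -0.054 to 0.14, Ebp from -0.071 to 0.038 and Sc5d from -0.023 to 0.13. In the fatty acid branch Acly ran from -0.024 to 0.11, Me1 from -0.067 to 0.15, Acaca from -0.056 to 0.14, Acacb from -0.027 to 0.29, Fasn from -0.066 to 0.17, Elovl5 from -0.0096 to 0.17, Elovl6 from -0.14 to 0.092 and Fads1 from -0.18 to 0.0023. Of the other genes Hacd3 ran from -0.018 to 0.11 and Mcat from -0.020 to 0.066. With 3 rats per group, the median standard error of a log2 change was 0.091 in the sterol and 0.13 in the fatty acid branch, which limits what these arrays can show.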
